A study of Gallus gallus with 16 samples.

Results

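HIF1A and BHLHE40 are 2 of the 6492 transcripts in the deposited expression table of chicken HD11 cells. They were chosen by name, by their RefSeq transcripts, with earlier results of these data known. HIF1A encodes the oxygen-regulated subunit of hypoxia-inducible factor, and BHLHE40 encodes a basic helix-loop-helix repressor that is a known target of this factor in mammals. On the GRCg7b assembly, HIF1A lies on chromosome 5 from 53477262 to 53507982 and BHLHE40 on chromosome 12 from 18769307 to 18773616, and both are annotated as protein-coding. The annotation holds 8 transcript accessions of HIF1A, of which 1 was in the table under this gene name, and 1 of BHLHE40, which was in the table. The HIF1A value therefore may not cover every transcript of the gene.

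The RNA came from HD11, a chicken macrophage-like cell line, in 4 treatment groups of 4 libraries each. CTR cells received PBS alone, LPS cells received lipopolysaccharide from Escherichia coli at 100 ng/mL, PB1 cells received procyanidin B1 (a plant flavan-3-ol dimer) at 100 μg/mL, and LPS + PB1 cells received both. The study's methods give PB1 for 12 h ahead of the LPS, and 12 h of LPS, whereas the sample labels give 6 h of LPS. The labelled protocol lists a further compound, SeMC, in the culture medium, and no group is set apart by it, and the methods give fewer libraries per group than the labels. Neither source says whether the 4 libraries of a group came from separate cultures, so the p-values measure the spread between these libraries, which may be technical.

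In the textbook account, the HIF1A protein is made continuously and destroyed while oxygen is present, because prolyl hydroxylases mark it for the VHL ubiquitin ligase. When hydroxylation fails, HIF1A pairs with ARNT and switches on genes of glycolysis, glucose uptake and blood vessel growth. In mammalian macrophages, LPS also raises HIF1A by way of NF-kappaB, so that the transcript level is a second point of control. BHLHE40 (also called DEC1 or Stra13) represses genes through E-box sequences, acts within the circadian clock, and is known in mouse macrophages and lymphocytes as a brake on interleukin-10. RNA levels do not report on the HIF1A protein, which was not measured in these libraries.

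The study measured HIF1A by PCR as well, and the primer pair is shown because it defines what that assay amplified. Both primers are 24 bases long with 13 G or C bases, and they are written from 5′ to 3′ with no base in capitals.
HIF1A forward: aaagggcaggtgactacgggacaa
HIF1A reverse: tcagaggcaggtagtggggacatt

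A library held between 4173989 and 4414942 recovered reads, of which 14.1% to 18.0% of the signal sat in its top 10 transcripts. In all 4 groups, replicates 1 and 2 lay close to each other and so did replicates 3 and 4. The SD of the log2 difference between 2 libraries of the LPS group, over transcripts, lay between 0.267 and 0.287 for libraries of a pair and between 0.504 and 0.536 across pairs, with 0.294 to 0.313 and 0.597 to 0.640 in LPS + PB1. The split was smaller in CTR, at 0.26 to 0.32 within and 0.41 to 0.44 across pairs. It was slight in PB1, at 0.29 to 0.32 within and 0.33 to 0.38 across pairs. What the pairs stand for is not given in the sources used here, so the results below are also given for each pair. The macrophage label was checked against 29 marker genes, of which 3 were in the table under a gene name. CYBB, a subunit of the phagocyte oxidase, had 0 reads in all 16 libraries, and MRC1, the macrophage mannose receptor, had 3 at most. Of 25 fibroblast and matrix genes, 10 were in the table and were abundant, with a summed normalized signal, on a scale of 1000000 for a whole library, from 108500 to 127800 for CTR, from 97650 to 134100 for LPS, from 87320 to 91940 for PB1 and from 88800 to 112200 for LPS + PB1. COL1A2, a fibrillar collagen chain, alone averaged a normalized signal of 43510 in CTR and 16450 in PB1. These values go against a plain macrophage identity for the RNA. The matrix genes with the largest log2 changes were TIMP3, a metalloproteinase inhibitor (3.08 in LPS + PB1 against PB1), COL3A1, another collagen chain (2.60 in LPS against PB1), DCN, the proteoglycan decorin (-1.58 in LPS + PB1 against CTR), and SPARC, a collagen-binding glycoprotein (1.52 in LPS + PB1 against PB1). COL1A2 (log2 change -1.41) was called lower in PB1 than in CTR, as HIF1A and BHLHE40 were. Of the 10 matrix genes, 4 were called lower in that comparison, 1 was called higher and 5 were not called. Among all transcripts tested there, 10.4% were called lower and 10.5% higher. The part of these markers in the results was not tested. In bulk RNA, fewer cells of a type and less RNA per cell cannot be told apart.

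By group mean, HIF1A was lowest in the PB1 cells and highest in the LPS cells, and BHLHE40 was lowest in PB1 and highest in LPS as well. For HIF1A, the LPS and CTR libraries overlapped. Levels are given as normalized signal, meaning the deposited value brought to a total of 1000000 for each library with TMM factors (the trimmed mean of M-values), without correction for gene length. HIF1A was 2104, 2108, 1955 and 1968 in CTR replicates 1 to 4, a narrow range with a mean of 2034 ± 83.5 (SD, n = 4). In PB1 it was 1008, 956, 1019 and 965, also narrow, with a mean of 987 ± 30.9 (SD, n = 4). All PB1 libraries lay below all CTR libraries.

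In LPS, HIF1A was 2914 and 3339 in replicates 1 and 2 but 1663 and 1799 in replicates 3 and 4, with a mean of 2429 ± 826 (SD, n = 4). The CTR libraries thus fell between the LPS pairs, and the LPS group had the widest spread of HIF1A, a coefficient of variation of 34.0% against 4.11% in CTR. In LPS + PB1 it was 1417, 1298, 1028 and 1059, with a mean of 1200 ± 188 (SD, n = 4), above all PB1 libraries and below all CTR libraries. Replicates 3 and 4 were lower than replicates 1 and 2 by 0.85 on the log2 scale in LPS and by 0.38 in LPS + PB1, and the difference was -0.10 in CTR and 0.01 in PB1. The reads behind HIF1A numbered 4023 to 13307 per library, so counting error was smaller than the spread between libraries.

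BHLHE40 was 56.0, 43.8, 37.8 and 45.5 in CTR replicates 1 to 4, with a mean of 45.8 ± 7.55 (SD, n = 4). In LPS it was 148, 167, 139 and 145, with a mean of 150 ± 12.3 (SD, n = 4). The LPS libraries, unlike those of HIF1A, lay close together and all above CTR. In PB1 it was 5.38, 5.70, 9.78 and 9.34, with a mean of 7.55 ± 2.33 (SD, n = 4), and in LPS + PB1 it was 75.5, 64.6, 100.2 and 98.4, with a mean of 84.7 ± 17.5 (SD, n = 4). No group overlapped with any other for BHLHE40. In single comparisons, 33.7% to 46.9% of all transcripts tested did not overlap, and the share apart in all 6 comparisons was not computed. The PB1 libraries held 23, 24, 41 and 38 reads of BHLHE40, with exact 95% Poisson intervals of 14.6 to 34.5, 15.4 to 35.7, 29.4 to 55.6 and 26.9 to 52.2 that cover counting error only, and the other libraries held 151 to 667. In PB1 and in LPS + PB1, replicates 3 and 4 were higher than replicates 1 and 2, by 0.79 and 0.51 on the log2 scale, which is the opposite side from HIF1A in LPS + PB1.

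**Figure D1:**
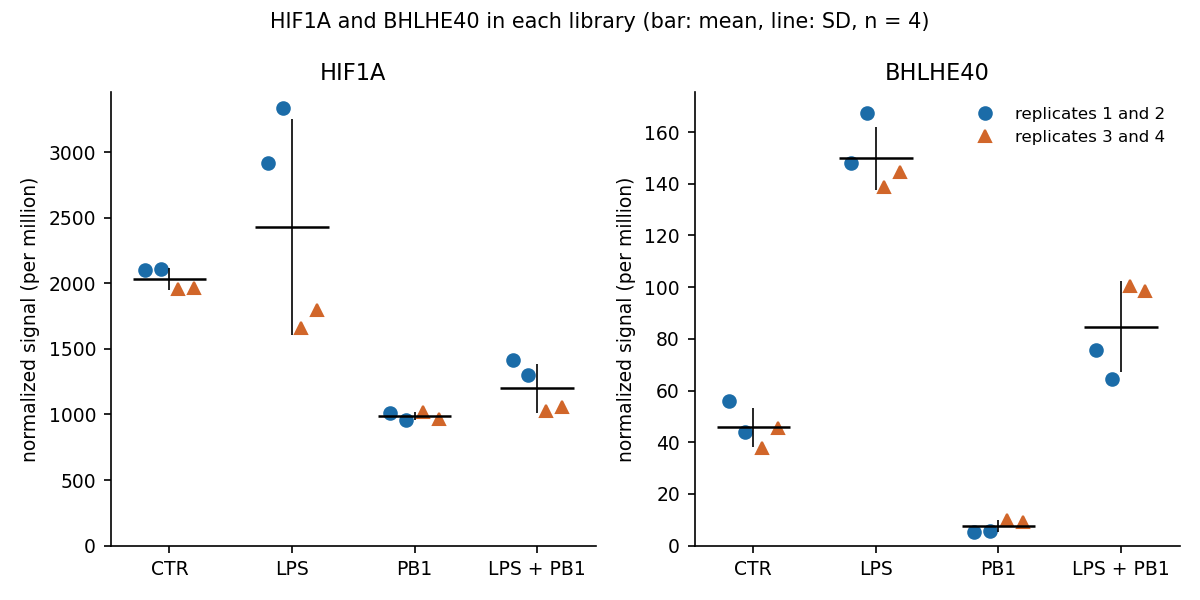
Normalized signal of HIF1A (left) and BHLHE40 (right) in each of the 16 libraries by treatment group, with circles for replicates 1 and 2, triangles for replicates 3 and 4, a bar at the mean and a line of 1 SD on each side (n = 4). HIF1A was split by pair in LPS, at 2914 and 3339 against 1663 and 1799, and BHLHE40 fell to between 5.38 and 9.78 in PB1.

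The first question was what LPS did to each gene when PB1 was absent. BHLHE40 rose 3.33-fold over CTR (log2 change 1.74, SE 0.12, limma adjusted p = 3.33e-06), and HIF1A was not called, at 1.15-fold (log2 change 0.21, 95% interval -0.25 to 0.66, limma adjusted p = 0.476). A call needed an adjusted p no higher than 0.05 together with a fold no smaller than 1.5, and 16.8% of the 4514 transcripts tested were called, 9.97% as higher and 6.82% as lower, with no overlap of the groups in 33.9%. By size of change, BHLHE40 stood at rank 193 of those transcripts and HIF1A at 2323. The HIF1A value joined pairs that went opposite ways, with a log2 change of 0.57 in replicates 1 and 2 alone and of -0.17 in replicates 3 and 4 alone. BHLHE40 changed by 1.67 and 1.79 in the same pairs. The difference between the pairs itself was not tested.

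PB1 alone lowered both genes against CTR. HIF1A fell 2.07-fold (log2 change -1.05, SE 0.06, limma adjusted p = 5e-08) and BHLHE40 fell 6.26-fold (log2 change -2.65, SE 0.21, limma adjusted p = 6.97e-07). Of 4485 transcripts, 20.9% were called and 10.4% were called lower, and the groups did not overlap in 42.3%. HIF1A ranked 517 and BHLHE40 139 by size of change. Each pair gave the same direction, with -1.12 and -0.99 for HIF1A and -3.18 and -2.12 for BHLHE40 in replicates 1 and 2 and in replicates 3 and 4.

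The study's central contrast was LPS + PB1 against LPS, in which both genes were lower with PB1. HIF1A fell 1.95-fold (log2 change -0.97, SE 0.23, limma adjusted p = 0.012) and BHLHE40 fell 1.79-fold (log2 change -0.84, SE 0.15, limma adjusted p = 0.00272). All LPS + PB1 libraries lay below all LPS libraries for both genes, and of 4546 transcripts 17.6% were called, 7.37% as higher and 10.2% as lower, with no overlap in 34.8%. The HIF1A change was -1.19 in replicates 1 and 2 and -0.72 in replicates 3 and 4. BHLHE40 changed by -1.17 in replicates 1 and 2, but by -0.51 in replicates 3 and 4, which is under the fold limit. When each pair was averaged and entered as 1 sample, neither gene was called, with limma adjusted p = 0.199 for HIF1A and limma adjusted p = 0.12 for BHLHE40.

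Against CTR, the LPS + PB1 cells had less HIF1A and more BHLHE40. HIF1A fell 1.68-fold (log2 change -0.75, SE 0.11, limma adjusted p = 0.000902) and BHLHE40 rose 1.86-fold (log2 change 0.90, SE 0.17, limma adjusted p = 0.00338). Of 4495 transcripts, 9.17% were called higher and 8.54% lower, and 33.7% did not overlap. HIF1A was down in both pairs, with log2 changes of -0.64 and -0.88. BHLHE40 was up by 1.29 in replicates 3 and 4 but by 0.49 in replicates 1 and 2, under the fold limit. With pairs averaged, neither gene was called, with limma adjusted p = 0.0874 for HIF1A and limma adjusted p = 0.0825 for BHLHE40.

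The next question was what LPS did to each gene in cells that had PB1. BHLHE40 rose 11.6-fold from PB1 to LPS + PB1 (log2 change 3.54, SE 0.24, limma adjusted p = 1.1e-06), at rank 127 of 4518 transcripts by size of change. HIF1A was 1.22-fold higher (log2 change 0.29, SE 0.11, limma adjusted p = 0.044), which is under the fold limit and was not called, although the libraries did not overlap. The lowest LPS + PB1 library was at 1028 and the highest PB1 library at 1019. The limma adjusted p was 0.269 with pairs averaged and 0.215 in 1 fit over all libraries. In this comparison 14.5% of transcripts were called higher and 46.9% did not overlap. The HIF1A difference was 0.48 in replicates 1 and 2 and 0.09 in replicates 3 and 4, whereas BHLHE40 rose by 3.67 and 3.39.

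Between the single treatments, LPS cells had 2.36-fold more HIF1A (log2 difference 1.24, SE 0.20, limma adjusted p = 0.000467) and 20.6-fold more BHLHE40 (log2 difference 4.37, SE 0.20, limma adjusted p = 3.26e-08) than PB1 cells. Of 4529 transcripts, 13.9% were called higher in LPS and 11.2% lower, and the groups did not overlap in 45.7%. BHLHE40 was at rank 76 and HIF1A at rank 548 by size of difference. In order of level, HIF1A ran PB1, LPS + PB1, CTR, LPS, where PB1 and LPS + PB1 differed by less than the fold limit and CTR and LPS did not differ beyond their spread. BHLHE40 ran PB1, CTR, LPS + PB1, LPS, and all neighbours in that order were called different. With pairs averaged, LPS + PB1 was called different neither from CTR (limma adjusted p = 0.0825) nor from LPS (limma adjusted p = 0.12).

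**Figure D2:**
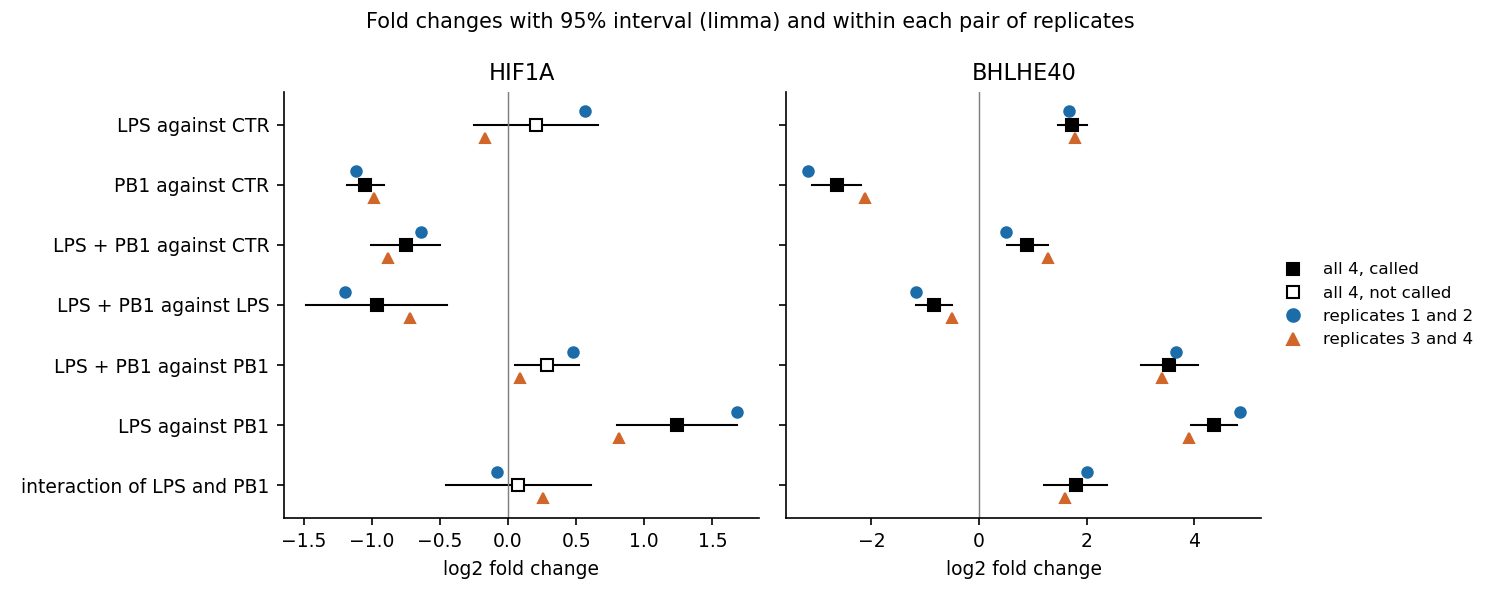
Log2 fold change of HIF1A (left) and BHLHE40 (right) in the 6 comparisons and for the interaction, with squares for all 4 libraries per group (filled where called), lines for the 95% limma interval, circles for replicates 1 and 2 alone and triangles for replicates 3 and 4 alone. For LPS against CTR the HIF1A pairs lie on opposite sides of 0, at 0.57 and -0.17, while the BHLHE40 pairs lie at 1.67 and 1.79.

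The interaction asks whether LPS acted differently with PB1 than without it, and it was fitted over all 16 libraries and called on the adjusted p alone. The LPS effect on BHLHE40 was larger with PB1 than without, by 1.80 on the log2 scale (SE 0.28, limma adjusted p = 6.28e-05). For HIF1A the LPS effects differed by 0.077, with a 95% interval from -0.45 to 0.61 (limma adjusted p = 0.84). Interaction calls were common, at 45.2% of 4651 transcripts and 21.8% in the same direction as BHLHE40. The larger rise of BHLHE40 started from the low PB1 level of 7.55 and ended at 84.7, below the level of 150 in LPS alone.

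Each library also gives the reads of BHLHE40 relative to those of HIF1A, a ratio that the scaling of libraries cannot move and whose level depends on the lengths of the transcripts, so that only its differences between groups are read. The log2 ratio averaged -5.49 ± 0.20 for CTR, -3.96 ± 0.40 for LPS, -7.08 ± 0.45 for PB1 and -3.84 ± 0.51 for LPS + PB1 (SD, n = 4 each). BHLHE40 thus rose relative to HIF1A by 1.53 from CTR to LPS and fell by 1.59 from CTR to PB1 on the log2 scale. LPS and LPS + PB1 differed in the ratio by 0.12 (exact permutation test, two-sided p = 0.571, adjusted over 6 comparisons p = 0.571), and by 0.03 and 0.22 within replicates 1 and 2 and within replicates 3 and 4. The other 5 comparisons each reached p = 0.0286 in the exact permutation test (adjusted p = 0.0343), the smallest that 70 regroupings of 4 against 4 libraries can give. For the levels themselves, the exact permutation test gave p = 0.457 for HIF1A in LPS against CTR and p = 0.0286 (adjusted over 12 tests p = 0.0312) in the remaining comparisons of both genes. The permutation tests took the 4 libraries of a group as separate and were not repeated with pairs averaged. The ratio was higher in replicates 3 and 4 than in replicates 1 and 2 in LPS, PB1 and LPS + PB1, while the pairs overlapped in CTR.

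**Figure D3:**
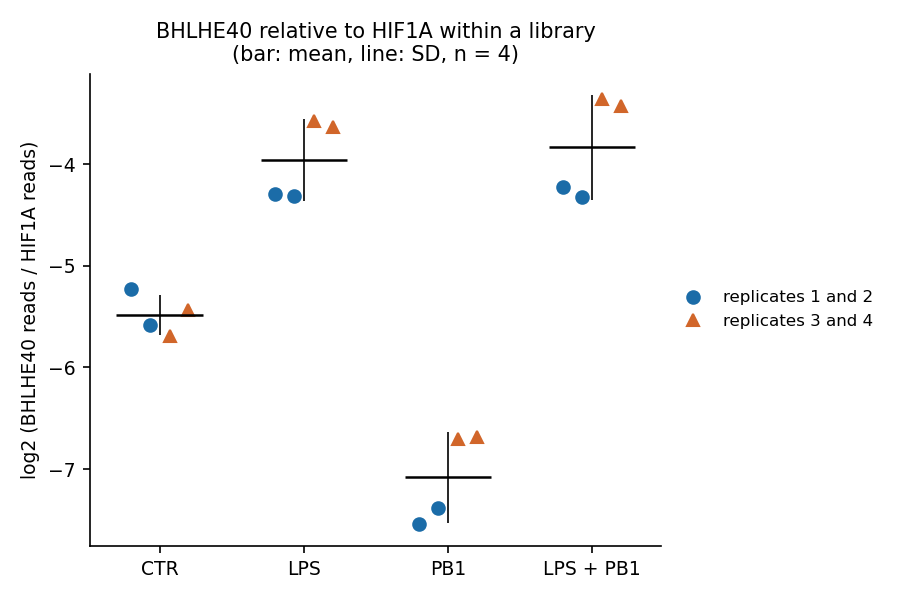
Log2 of BHLHE40 reads over HIF1A reads in each of the 16 libraries by treatment group, with circles for replicates 1 and 2, triangles for replicates 3 and 4, a bar at the mean and a line of 1 SD on each side (n = 4). The group means ran from -7.08 (PB1) over -5.49 (CTR) to -3.96 (LPS) and -3.84 (LPS + PB1), and the groups that received LPS overlapped.

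Among genes that build or restrain hypoxia-inducible factor, 3 of 20 listed were in the table under a gene name. EPAS1 (chromosome 3, 26202113 to 26321576) encodes HIF2A, the second oxygen-regulated subunit. Its normalized signal was 1311 ± 192 for CTR, 772 ± 165 for LPS, 517 ± 24.5 for PB1 and 1473 ± 141 for LPS + PB1 (SD, n = 4). Like HIF1A it fell in PB1 against CTR (log2 change -1.34, SE 0.09, limma adjusted p = 2.36e-07), but it also fell in LPS against CTR (log2 change -0.76, SE 0.16, limma adjusted p = 0.00482). It was higher, not lower, in LPS + PB1 than in LPS (log2 change 0.95, SE 0.15, limma adjusted p = 0.00176), and its interaction was 2.28 (SE 0.19, limma adjusted p = 7.34e-08). With pairs averaged, its changes in LPS against CTR (limma adjusted p = 0.107) and in LPS + PB1 against LPS (limma adjusted p = 0.116) were not called. RBX1, a subunit of the VHL ligase, and RACK1, which promotes oxygen-independent loss of HIF1A, were called in none of the 6 comparisons, where 16.8% to 29.3% of all transcripts were. ARNT, VHL and the prolyl hydroxylases were not analysed here.

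Of 72 listed targets of HIF1A, 15 were in the table and 11 were tested. In PB1 against CTR, 1 was called higher, 3 lower and 7 were not called, where 10.5% of all transcripts tested were called higher and 10.4% lower, and the median log2 change was -0.25 against 0.01 for all transcripts tested. In LPS + PB1 against LPS, none was higher, 1 was lower and 10 were not called (7.37% and 10.2% of all transcripts), with a median of -0.12 against -0.01. In LPS against CTR the counts were 1 higher, 1 lower and 9 not called (9.97% and 6.82% of all transcripts), and in LPS + PB1 against CTR none was higher and 1 was lower (9.17% and 8.54%). In LPS + PB1 against PB1, 3 were higher and 1 lower (14.5% and 14.9% of all transcripts), and in LPS against PB1, 4 were higher and 1 lower (13.9% and 11.2%). HMGA2 and STEAP4, the targets that the study followed by PCR, were not analysed here.

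SLC2A1 (chromosome 21, 6443561 to 6458116), which encodes the glucose transporter GLUT1, was the listed target that moved in the same comparisons as HIF1A. It was 207, 188, 185 and 194 in CTR replicates 1 to 4, 282, 299, 187 and 175 in LPS, 92.1, 88.4, 114 and 112 in PB1 and 105, 90.1, 73.8 and 66.2 in LPS + PB1. The split of the LPS group by pair was therefore present in SLC2A1 as well, with replicates 3 and 4 near or below CTR. SLC2A1 fell in PB1 against CTR (log2 change -0.94, SE 0.09, limma adjusted p = 5.46e-06), in LPS + PB1 against LPS (log2 change -1.47, SE 0.21, limma adjusted p = 0.000766) and in LPS + PB1 against CTR (log2 change -1.20, SE 0.13, limma adjusted p = 0.000135). It was not called in LPS against CTR, at 0.26, nor in LPS + PB1 against PB1, at -0.27. In the latter comparison HIF1A went the other way, at 0.29, and was not called either. With pairs averaged, SLC2A1 was not called in LPS + PB1 against LPS (limma adjusted p = 0.0858).

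The glycolytic enzymes tested were all lower in PB1 than in CTR, as HIF1A was, but did not follow it throughout. In PB1 against CTR, ENO1 (log2 change -0.48, limma adjusted p = 0.00153) and PGAM1 (-0.39, limma adjusted p = 0.00987) were under the fold limit. ALDOC was at -0.17 there (limma adjusted p = 0.155). In LPS + PB1 against LPS, where HIF1A fell, PGK2 (0.60), ENO1 (0.47), ALDOC (0.16) and PGAM1 (-0.29) had mixed directions, and none was called. PGK2, a phosphoglycerate kinase, fell in PB1 against CTR by 0.59 on the log2 scale (limma adjusted p = 0.000242) and was higher in LPS + PB1 than in PB1 by 0.71 (limma adjusted p = 0.0079). The latter difference was 1.21 in replicates 1 and 2 alone but 0.20 in replicates 3 and 4 alone, under the fold limit. ENO1, the enolase of glycolysis, fell in LPS against CTR by 0.64 (limma adjusted p = 0.00503). PGAM1, a phosphoglycerate mutase, was higher in LPS than in PB1 by 0.59 (limma adjusted p = 0.00421), and ALDOC, an aldolase, was called in none of the 6 comparisons. The PGAM1 difference was 0.98 in replicates 1 and 2 alone but 0.22 in replicates 3 and 4 alone, under the fold limit. PGK2 in PB1 against CTR and PGAM1 in LPS against PB1 lay at the edge of the fold limit and were not called without TMM factors. In PB1 against CTR, PGK2 was under the fold limit without the filter (-0.583), in 1 fit over all libraries (-0.584) and in replicates 3 and 4 alone (-0.51). PGK2 was also under that limit without PB1 replicate 1 (-0.52), PB1 replicate 2 (-0.55) or CTR replicate 3 (-0.55), and PGAM1 without LPS replicate 1 (0.56), LPS replicate 2 (0.53), PB1 replicate 1 (0.51) or PB1 replicate 2 (0.56). With pairs averaged, ENO1 (limma adjusted p = 0.139), PGAM1 (limma adjusted p = 0.0706) and PGK2 in LPS + PB1 against PB1 (limma adjusted p = 0.0997) were not called, and the ENO1 change was under the fold limit in replicates 1 and 2 alone (-0.35), without LPS replicate 3 (-0.58) and without LPS replicate 4 (-0.55).

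Targets outside glycolysis also split. HMOX1, which encodes heme oxygenase, rose in LPS against CTR (log2 change 0.93, SE 0.28, limma adjusted p = 0.0296), LOX, which crosslinks collagen, rose in PB1 against CTR (log2 change 0.69, SE 0.07, limma adjusted p = 8.14e-06), and TGFB3, a growth factor, fell there (log2 change -1.76, SE 0.22, limma adjusted p = 4.39e-05). The HMOX1 change was 0.43 in replicates 3 and 4 alone, and it was not called with pairs averaged (limma adjusted p = 0.194) or without LPS replicate 3, LPS replicate 4, CTR replicate 1 or CTR replicate 2 (limma adjusted p from 0.0671 to 0.0765). TGFB3 was at 9 to 15 reads in the PB1 libraries. BNIP3L, MXI1 and MIF were called in none of the 6 comparisons, and NOS2, the inducible nitric oxide synthase of activated macrophages, had 2 reads at most in any library. LOX, with a mean of 5061 in CTR and 8187 in PB1, is on the fibroblast and matrix list too, of which 4 of 10 genes were called lower and 1 higher in PB1 against CTR, where 10.4% of all transcripts were called lower and 10.5% higher.

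**Figure D4:**
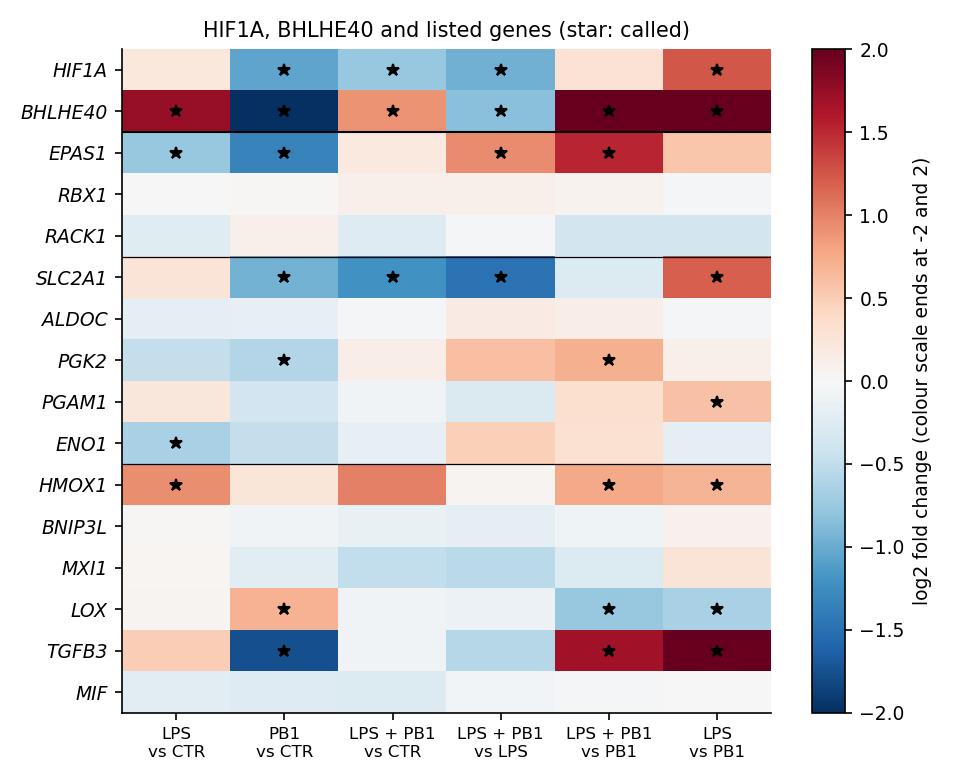
Log2 fold change of HIF1A, BHLHE40, 3 genes of the factor's own machinery and the 11 tested targets (rows) in the 6 comparisons (columns), with a star where a change was called and a colour scale that ends at -2 and 2. SLC2A1 has stars in the same 4 columns as HIF1A, and EPAS1 has the opposite colour in LPS + PB1 against LPS, at 0.95 against -0.97 for HIF1A.

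Around BHLHE40, the clock genes were thinly covered, with 1 of 26 in the table, and the related helix-loop-helix genes better, with 7 of 21 in the table and 6 tested. TEF, a clock-controlled activator, fell in LPS + PB1 against LPS by 0.73 on the log2 scale (limma adjusted p = 0.00019) and was called in no other comparison of groups. ID proteins bind helix-loop-helix factors and keep them off DNA. ID4, like BHLHE40, changed strongly, rising in LPS against CTR (log2 change 3.13, SE 0.11, limma adjusted p = 5.15e-08), falling in PB1 against CTR (log2 change -3.39, SE 0.20, limma adjusted p = 4.71e-08) and falling in LPS + PB1 against LPS (log2 change -4.40, SE 0.16, limma adjusted p = 4.92e-07). In LPS + PB1 against CTR, ID4 fell (log2 change -1.26, SE 0.16, limma adjusted p = 0.000344) while BHLHE40 rose. ID3 fell in PB1 as BHLHE40 did, from 33.1 ± 3.56 in CTR to 6.31 ± 0.60, but reached 476 ± 31.8 in LPS + PB1 against 48.7 ± 11.6 in LPS (normalized signal, SD, n = 4). The PB1 libraries held 6 to 13 reads of ID4 and 25 to 29 of ID3. In comparisons with PB1, ID4 passed the filter of 10 reads only through the other group. ID2 rose in LPS against CTR (log2 change 0.97, SE 0.11, limma adjusted p = 0.000131), and MXD4, a MYC antagonist, fell in LPS + PB1 against LPS (log2 change -0.66, SE 0.14, limma adjusted p = 0.00715). With pairs averaged, TEF (limma adjusted p = 0.0613) and MXD4 (limma adjusted p = 0.16) were not called in LPS + PB1 against LPS, and MXD4 was under the fold limit without LPS replicate 3 (-0.54). TCF12 and TWIST1 were called in none of the 6 comparisons.

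Of 18 listed regulators of HIF1A transcription and translation, 2 were in the table. DEPTOR, an inhibitor of the mTOR kinase that promotes HIF1A translation, averaged 7.34 ± 1.55 for CTR, 195 ± 20.5 for LPS, 1.08 ± 0.11 for PB1 and 41.5 ± 2.48 for LPS + PB1 (normalized signal, SD, n = 4). Its order of groups was that of BHLHE40, and it was called in all 6 comparisons. In single comparisons 16.8% to 29.3% of all transcripts tested were called, and the share called in all 6 was not computed. The PB1 libraries held 3 or 4 reads of DEPTOR each. In comparisons with PB1, DEPTOR therefore passed the filter of 10 reads only through the other group. NFKBIA, the inhibitor of NF-kappaB that NF-kappaB itself induces, was at 56.2 ± 7.06 in CTR and 48.7 ± 4.22 in LPS (SD, n = 4) and was called in none of the 6 comparisons.

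Among 795 transcripts with a gene name and a mean normalized signal of at least 50, those nearest in profile to each gene were ranked by the root mean square difference of log2 signal, centred on its mean over the 16 libraries. HIF1A, whose own SD over the libraries was 0.57 on the log2 scale, was nearest to SLC2A1 (0.25), PGRMC2 (0.31) and FZD7 (0.34), against a median of 0.62 over all candidates. PGRMC2 encodes a membrane-associated progesterone receptor component and FZD7 a Wnt receptor. BHLHE40, with an SD of 1.66, was nearest to SOX4 (0.54), SLC38A1 (0.61) and RHOJ (0.75), against a median of 1.68. SOX4 encodes a transcription factor, SLC38A1 an amino acid transporter and RHOJ a small GTPase. HIF1A and BHLHE40 differed from each other by 1.37 on this measure. The libraries behind these profiles share their treatments and their pairs, and the values are a description without a test.

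The neighbours of BHLHE40 were all, on average, lowest in PB1 and higher in LPS than in CTR. They were chosen for a profile near that of BHLHE40, so this likeness is no separate result. SOX4 averaged 34.1 ± 9.92 for CTR, 118 ± 20.7 for LPS, 10.5 ± 0.81 for PB1 and 79.0 ± 37.6 for LPS + PB1 (normalized signal, SD, n = 4), in the order of BHLHE40. RHOJ averaged 4.80 ± 0.62 in PB1 and 99.8 ± 42.0 in LPS + PB1, above its LPS mean of 66.7 ± 30.3. Of the neighbours of HIF1A, FZD7 averaged 164 ± 3.60 in PB1 and 167 ± 12.8 in LPS + PB1 but 470 ± 66.0 in LPS against 238 ± 28.5 in CTR, with all LPS libraries above all CTR libraries, where those of HIF1A overlapped. Between LPS and CTR, 33.9% of all transcripts tested did not overlap.

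**Figure D5:**
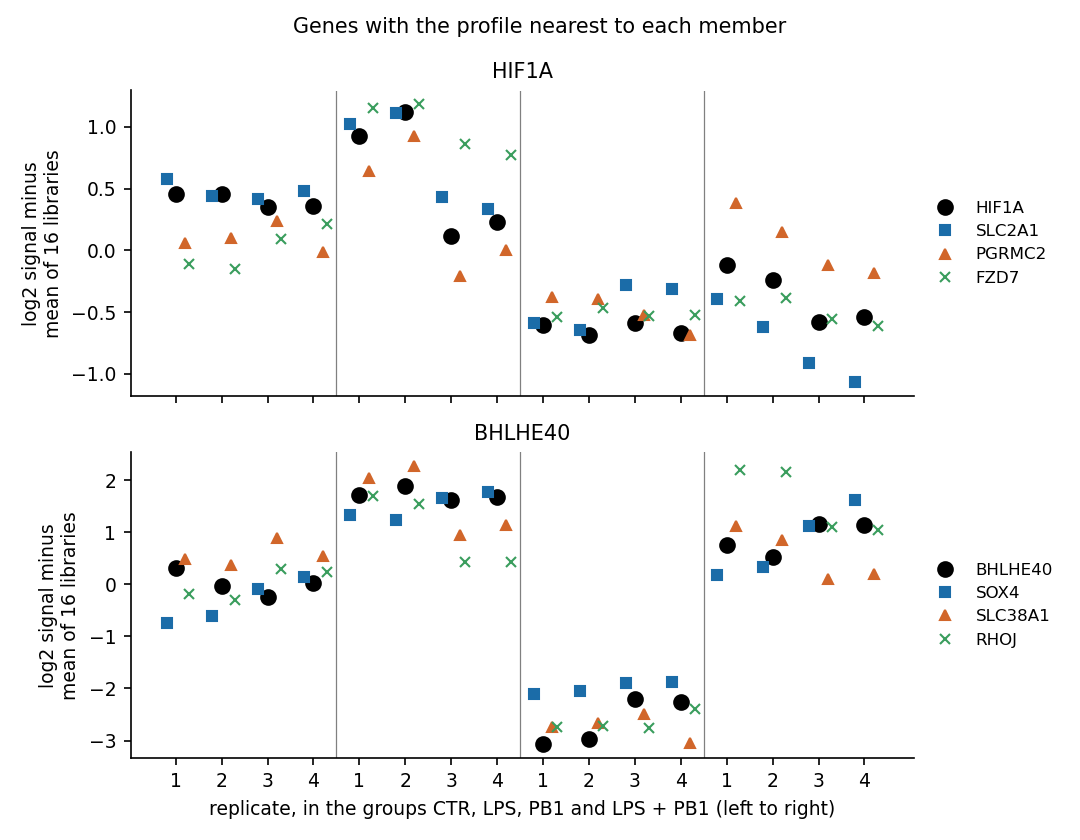
Log2 normalized signal minus the mean over 16 libraries for HIF1A (top) and BHLHE40 (bottom) with the 3 named genes nearest to each, by replicate within the groups CTR, LPS, PB1 and LPS + PB1 from left to right, separated by vertical lines. SLC2A1 lies nearest to HIF1A, at a root mean square difference of 0.25, and SOX4 to BHLHE40, at 0.54.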

How the data were processed

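RNA-seq libraries (Illumina TruSeq, single reads) of 16 HD11 samples were grouped by the treatment in their titles. Per the study's methods the authors removed low-quality reads, aligned with HISAT2 to GRCg7b, counted with Htseq-count and tested with DESeq2. The deposited values are in the unit signal: 1 is added to the reads of a transcript, the sum is multiplied by a factor particular to the library (2.97 to 5.53), and the product is rounded down. Reads were recovered by dividing by this factor. How the factor was chosen is not given in the sources used here. Of 6492 transcripts, 1697 matched a symbol of the RefSeq annotation, 1697 of 1702 curated and 0 of 4790 predicted accessions.

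Signals were scaled to 1000000 per library after TMM normalization, filtered (10 reads in 4 libraries and 15 in all) and tested in log2 with limma 3.58.1 (R 4.3.3, with trend), with no pseudocount beyond the added read, in the 2 groups compared. P-values were Benjamini-Hochberg adjusted over all tested transcripts. Calls needed an adjusted p no higher than 0.05 and, except for the interaction, a fold no smaller than 1.5. The design named a count test for plain counts, and since the values are not counts limma was used. The fit was tested on simulated data. Single values were compared by exact permutation tests. Figures were drawn in Python 3.11.15.

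The genes and lists were chosen with earlier results of these data known. The genes named are HIF1A, BHLHE40, list genes called in at least 1 comparison (up to 4 a list with the largest change), HMGA2 and STEAP4, and the 3 nearest profiles of each gene. List genes named as not called, those past the first 4 of a list, and COL1A2, CYBB, MRC1 and NOS2 were chosen after their values were seen. The result of 1 macrophage marker is not reported here. The replicate numbers come from the labels. In LPS + PB1 against LPS, the deviations from the group mean in libraries of the same number correlated at 0.459 to 0.559 for all 4 numbers. In the other comparisons they correlated at -0.193 to 0.274. Libraries of different number were not compared, and both groups share the split by pair. These values therefore cannot show whether the numbers match samples across groups. Alternatives tried were other scaling, no filter, a pseudocount of 1, a replicate block, 1 fit over all libraries, each library left out, averaged pairs and each pair alone.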

Additional observations from a re-analysis of the deposited data

Results flagged for a closer look

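The LPS effect on BHLHE40 with PB1 exceeded that without PB1 by 1.80 on the log2 scale (3.54 against 1.74, limma adjusted p = 6.28e-05, n = 4 per group), and by 2.01 in replicates 1 and 2 alone and 1.61 in replicates 3 and 4 alone. HIF1A had no such difference past the threshold. Since 45.2% of 4651 transcripts had a called interaction, the BHLHE40 call is a common kind of result in these data.

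Among the genes of the lists, the LPS effect with PB1 minus that without PB1 was 2.28 for EPAS1, 1.18 for PGK2, 0.94 for ENO1, 5.71 for ID3 and 0.51 for DEPTOR on the log2 scale. It was -0.82 for LOX, -0.85 for TEF, -0.58 for ID2, -1.02 for ID4 and -0.79 for MXD4. On the fibroblast and matrix list it was also called for TIMP3 (1.81), SPARC (1.49), COL1A2 (1.19), COL3A1 (0.78), DCN (-1.19) and COL6A2, a collagen chain (-1.24). With pairs averaged, those of PGK2, ENO1, DEPTOR, LOX, ID2, MXD4, SPARC, COL1A2, COL3A1, DCN and COL6A2 were not called (limma adjusted p from 0.0695 to 0.263). The DEPTOR value (limma adjusted p = 0.0496) rests on PB1 libraries of 3 or 4 reads. It was also not called with other scaling, without the filter or under the replicate block (limma adjusted p from 0.0511 to 0.139). In replicates 3 and 4 alone it was 0.14 (limma adjusted p = 0.703). Several fits that left out 1 library lost the call as well (limma adjusted p from 0.0578 to 0.107).

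In LPS + PB1, 1 library of DEPTOR stood apart from the other 3, with a gap of 0.91 of the group's range in log2 signal. Chance flags about 1 in 20 groups in this way. The range was narrow, from 40.0 to 45.2 in normalized signal.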

How the results depend on the processing

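The BHLHE40 changes in every comparison other than those of LPS + PB1 with CTR and with LPS, its interaction, and the HIF1A changes in PB1 against CTR and LPS against PB1 kept their direction and their call under all alternatives that were run. Averaging the pairs left 2 samples per group. Calls were then lost for HIF1A (-0.75) and BHLHE40 (0.90) in LPS + PB1 against CTR and for HIF1A (-0.97) and BHLHE40 (-0.84) in LPS + PB1 against LPS. BHLHE40 fell under the fold limit in LPS + PB1 against CTR in replicates 1 and 2 alone (0.49) and in LPS + PB1 against LPS in replicates 3 and 4 alone (-0.51). HIF1A in LPS against CTR turned to -0.17 in replicates 3 and 4 alone, and its interaction turned to -0.081 in replicates 1 and 2 alone, and neither was called with all libraries. The cause was not tested.

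With each library left out in turn, HIF1A ranged from 0.03 to 0.37 in LPS against CTR, from -1.07 to -1.03 in PB1 against CTR, from -0.84 to -0.69 in LPS + PB1 against CTR, from -1.13 to -0.79 in LPS + PB1 against LPS and from 0.21 to 0.36 in LPS + PB1 against PB1. Its interaction ranged from -0.079 to 0.25 and was below 0 without LPS replicate 3 (-0.079), without LPS replicate 4 (-0.04) or without LPS + PB1 replicate 1 (-0.01). BHLHE40 ranged from 0.80 to 1.03 in LPS + PB1 against CTR and from -0.93 to -0.72 in LPS + PB1 against LPS, with all calls kept. The interaction of DEPTOR turned to -0.22 with a pseudocount of 1.

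The replicate block changed no call of HIF1A or BHLHE40. In LPS + PB1 against LPS, the blocked log2 changes were -0.97 (limma adjusted p = 0.000313) for HIF1A and -0.84 (limma adjusted p = 0.00212) for BHLHE40. The block treats libraries of the same number as matched, which was not tested. With the pairs averaged instead, neither gene was called there (limma adjusted p = 0.199 and limma adjusted p = 0.12). Under the block, 2 results of list genes lost their call. Among the list genes, averaging the pairs cost 34 results their call, leaving out 1 library cost 12, replicates 1 and 2 alone 10 and replicates 3 and 4 alone 7. The planned edgeR and DESeq2 fits were not run. The deposited values are scaled and are not counts, and the recovered reads were not put through these tools. Depth limits BHLHE40, DEPTOR, ID3, ID4 and TGFB3 in PB1.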
